A study of Mus musculus with 12 samples.

Results

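The comparison described here is that of CSF3R T618I with an empty vector in mouse HoxB8 cells that carried a non-targeting guide, that is, cells in which Asxl1 had not been targeted. It used 6 of the 12 ATAC-seq libraries of the study, 3 labelled sgNT/T618I and 3 labelled sgNT/Empty, and they were chosen by these labels and by no measured value. HoxB8 cells are immortalized bone marrow progenitors, grown with estrogen and stem cell factor. Estrogen was withdrawn 48 h before each library was prepared. Cells of the sgNT/Empty group carried the non-targeting guide RNA and the vector pMICH-Empty, and cells of the sgNT/T618I group carried the same guide and pMICH-CSF3R-T618I. The other 6 libraries, which entered the model fits for their spread and are otherwise used for comparison, carried the guide Asxl1 B2, designed to truncate Asxl1, with either pMICH-Empty (sgB2/Empty) or pMICH-CSF3R-T618I (sgB2/T618I). T618I was thus compared with an empty vector, and cells given a wild-type receptor were not analysed here. The cells keep their own Csf3r gene. Whether a group is 1 clone or a pool, and whether its 3 libraries are separate cultures, is not in the labels, so p-values measure only the spread between these libraries.

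CSF3R binds granulocyte colony-stimulating factor, the main cytokine of neutrophil production. It signals through JAK kinases to STAT transcription factors, which switch on feedback inhibitors such as Socs and Cish, and T618I is a mutation known from chronic neutrophilic leukaemia that makes the receptor signal without its ligand. A maturing neutrophil first fills primary granules with myeloperoxidase and serine proteases. It then makes secondary and tertiary granule proteins, and last the chemokine receptors and surface proteins of the mature cell. Chromatin near the genes of each stage opens as they come into use. ATAC-seq maps such open chromatin by inserting sequencing adapters into accessible DNA.

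Each library gave 1 list of peaks. The sgNT/Empty lists held 18484, 26579 and 29699 peaks and the sgNT/T618I lists 28584, 26112 and 29642. They covered 9.23, 14.4 and 16.8 Mb without the mutant receptor and 16.8, 15.8 and 16.2 Mb with it. The first sgNT/Empty list was the shortest of the 6, and the other 5 overlapped between groups. Exact two-sided permutation tests over 3 against 3 libraries, whose smallest possible p is 0.1, gave 0.7 for the number of peaks, 0.4 for the covered length and 0.3 for the median peak width. No read counts came with the lists, so the sequencing depth is unknown. Of 12 myeloid progenitor markers, 9 or 10 had a peak within 1 kb of the gene in the sgNT/Empty libraries and 10 in each sgNT/T618I library, with Fcgr3 in none and Elane in only the third sgNT/Empty library. Markers of other cell types were mostly closed in both groups. Pax5, Cd3e, Cd4, Gata1, C1qa, Col3a1 and Epcam had no peak in any library, while Cd3d and Klf1 had one in all 12, and Cd79a had one in 1 sgNT/Empty library and in all 3 sgNT/T618I libraries. The stromal marker Col1a1 had a peak in 11 of the 12 libraries and Pdgfrb in 4. The erythroid marker Epor had one in 5 and the macrophage marker Adgre1 in 10. Of the 6 macrophage markers, 0 to 2 had a peak in an sgNT/Empty library and 1 in each sgNT/T618I library.

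Open chromatin around genes was measured as the peak-covered length in a window from 50 kb before to 50 kb after the gene, scaled so that all libraries had the same total covered length. Of 15282 genes tested, coverage rose with T618I around 178 (1.16%), in 100 separate loci, and fell around 50 (0.327%), in 39 loci, by limma over all 12 libraries at an adjusted p below 0.05. The 5 largest increases, with 1 gene per locus, lay around Nrp2, F2rl2, Cd177 with Ceacam10, Gm15448 and Fam155a, and those of Map10, Upp1, Stfa2 and Retnlg came next. The median log2 change was 0.91 over the genes that rose, from 0.49 to 2.02, and -0.77 over those that fell, from -0.52 to -1.76, against -0.06 over all genes. Rises made up 78.1% of the calls. In lists trimmed to equal length (each library's strongest peaks, to the number in the shortest list) that share was 62.4% (318 rose and 192 fell), and without scaling all 59 calls were rises. With T618I replicate 2 left out, 59 of the 178 rises and 5 of the 50 falls were still called. All 228 kept their direction in each of the 6 fits that left out 1 library. Where the groups do not overlap, leaving out 1 library cannot turn the direction, so for such genes this was fixed beforehand. Fitted on the 6 sgNT libraries alone, 127 of the 178 rises and 25 of the 50 falls were called. With a 10 kb window 27 of 121 rises and 11 of 40 falls that could be tested were called. Because 500 bp were added before taking logs, a log2 change understates the change of genes with little coverage. In these bulk samples, more cells with a region open and a region more open in each cell cannot be told apart.

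The receptor gene itself was examined first. Around Csf3r (gene 12986; mm10 chromosome 4, 126023441 to 126044975), peaks covered 3.40, 2.88 and 3.01 kb in the sgNT/Empty libraries and 4.76, 4.41 and 4.43 kb in the sgNT/T618I libraries. All 3 T618I libraries lay above all 3 controls. The change of 0.49 ± 0.12 (log2, SE) passed the limma threshold at its edge, with an adjusted p of 0.04999, and it did not pass when any 1 of the 6 libraries was left out (adjusted p from 0.051 to 0.19), nor with a 10 kb window (log2 change 0.22) or equal-length lists (0.22). The difference lay in 2 regions, at chr4:125990289-125991181 and chr4:126003993-126005124, which lie 32.3 and 18.3 kb before the gene. Both were gained, that is, had a peak in all 3 sgNT/T618I libraries and no sgNT/Empty library, and both repeated that pattern in cells with the Asxl1 guide. The region at the promoter, chr4:126024127-126025120, was open in all 12 libraries but stood lower within the list, as described below. Reads from the vector and from the endogenous gene cannot be told apart in peak lists. Around Asxl1 (chromosome 2, 153345830 to 153404007) coverage was 2.28, 2.06 and 3.75 kb in sgNT/Empty and 5.13, 5.74 and 5.27 kb in sgNT/T618I, a log2 change of 0.92 ± 0.22 (SE; limma adjusted p = 0.0489). This call was lost when any library except sgNT/Empty replicate 3 was left out (log2 changes from 0.77 to 0.95 in those 5 fits), and also with a 10 kb window (0.62, adjusted p = 0.275). Peak lists do not show whether the gene is edited. Around the mouse gene Hoxb8 (chromosome 11, 96279401 to 96285325) coverage was 0.61, 1.68 and 0.75 kb in sgNT/Empty and 1.37, 1.05 and 1.11 kb in sgNT/T618I. The groups thus overlapped (log2 change 0.21 ± 0.23, SE; limma adjusted p = 0.719). The direction of this change turned with stricter peaks (-0.07) and with equal-length lists (-0.23). Reads from any introduced copy of Hoxb8 cannot be told apart in peak lists.

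Late neutrophil and granule genes were examined by lists that had been drawn up with earlier results of these data known. Of 24 mature neutrophil genes tested, 3 rose (Retnlg, Stfa2l1 and Csf3r) and none fell, and of 19 secondary and tertiary granule genes, 5 rose (Ceacam10, Cd177, S100a8, S100a9 and Mmp8) and none fell, where 1.16% of all genes rose. The median log2 change was 0.37 over the mature neutrophil list and 0.26 over the granule list. In 13 of the 24 and 8 of the 19 genes all sgNT/T618I libraries lay above all sgNT/Empty libraries, which held for 8.81% of all genes tested.

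Retnlg (gene 245195; chromosome 16, 48872608 to 48874498) encodes resistin-like gamma, a protein made by neutrophils. Peaks in its window covered 0, 0.208 and 0.314 kb in the sgNT/Empty libraries and 1.34, 1.60 and 1.35 kb in the sgNT/T618I libraries. The 2 groups were well apart, and the log2 change was 1.55 ± 0.23 (SE; limma adjusted p = 0.00222). Cd177 (gene 68891; chromosome 7, 24743983 to 24760334), a surface protein of granule-bearing neutrophils, and Ceacam10 (gene 26366; 24777167 to 24784656), an adhesion protein of the carcinoembryonic antigen family, lie side by side and share regions. Around Cd177, coverage was 0.309, 0 and 0.170 kb in sgNT/Empty and 1.99, 1.25 and 1.91 kb in sgNT/T618I (log2 change 1.76 ± 0.22, SE; limma adjusted p = 0.000853). Around Ceacam10 it was 0, 0 and 0.160 kb against 1.96, 1.54 and 1.48 kb (log2 change 1.97 ± 0.29, SE; limma adjusted p = 0.00218). This stretch of chromosome 7 was therefore nearly without peaks in the control libraries. It gained a region just before the Cd177 start, chr7:24761141-24761852, and one over the Ceacam10 start, chr7:24776828-24777287.

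S100a8 and S100a9 (chromosome 3, 90669071 to 90670034 and 90692630 to 90695721) encode the 2 subunits of calprotectin, the most abundant protein of the neutrophil cytosol. The same peaks fell into both windows and covered 3.30, 2.57 and 3.04 kb in sgNT/Empty and 6.59, 7.46 and 5.95 kb in sgNT/T618I. The mean rose from 2.97 ± 0.37 to 6.67 ± 0.76 kb (SD, n = 3), a log2 change of 1.05 ± 0.12 (SE; limma adjusted p = 0.000559). The lowest T618I library was thus far above the highest control. The regions at both gene starts were open in all 6 libraries, and the difference came from 3 further regions present in each T618I library and no control: chr3:90671459-90673377 just past S100a8, chr3:90682258-90682888 between the genes and chr3:90691566-90692963 at the far end of S100a9. Around Mmp8, the neutrophil collagenase, which was named after its values were seen, coverage was 1.1, 1.21 and 1.42 kb in sgNT/Empty and 2.07, 3.84 and 2.63 kb in sgNT/T618I (log2 change 0.91 ± 0.19, SE; limma adjusted p = 0.0246).

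**Figure D1:**
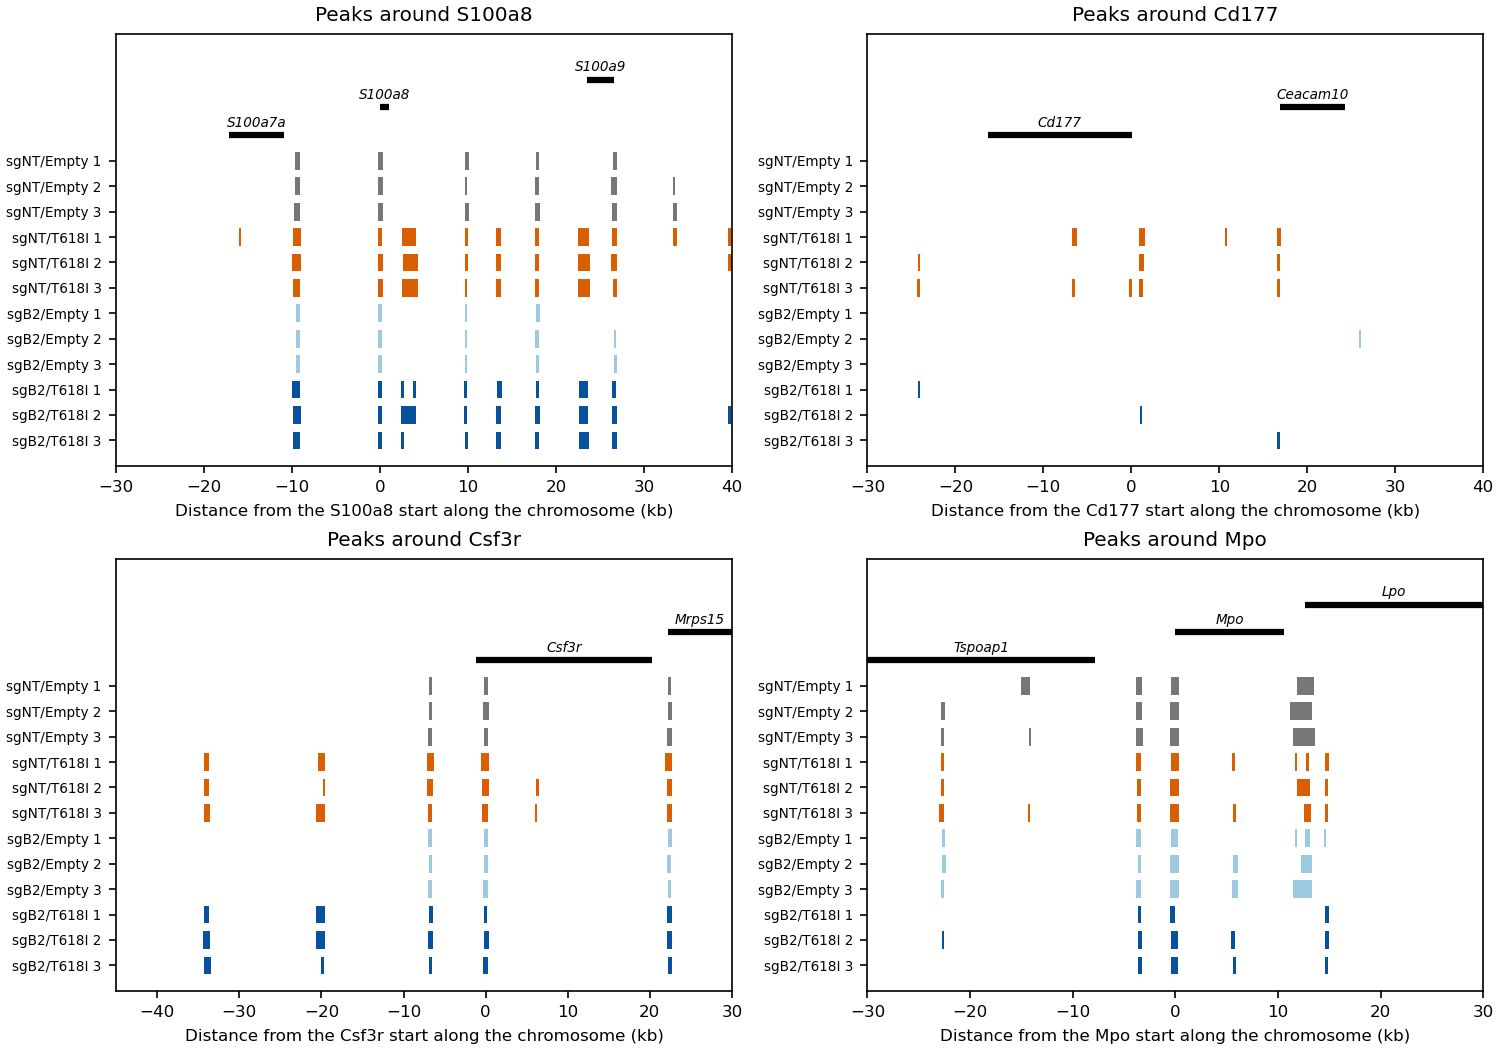
Peaks around S100a8, Cd177, Csf3r and Mpo in the 12 libraries, 1 row per library; coloured bars are peaks, black bars are genes, and the x axis is the distance in kb along the chromosome from the RefSeq start of the gene in the title. Orange rows (sgNT/T618I) hold peaks between S100a8 and S100a9, around Cd177 and Ceacam10 and before Csf3r that the grey rows (sgNT/Empty) lack, and the block of peaks 11.2 to 13.6 kb past the Mpo start is wider in the grey rows.

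The stefins, small inhibitors of cysteine proteases that neutrophils make in quantity, form 1 cluster on chromosome 16, and 12 genes of that cluster rose. Within the list of protease inhibitor genes 8 of 13 tested members rose and none fell, with a median log2 change of 0.88; all 8 belong to this 1 locus and share regions. Around Stfa2 (gene 20862; chromosome 16, 36403946 to 36408363) coverage was 0.733, 1.73 and 2.67 kb in sgNT/Empty and 5.18, 5.81 and 5.95 kb in sgNT/T618I (log2 change 1.58 ± 0.27, SE; limma adjusted p = 0.00631). At the other end of the cluster, Stfa2l1 and Cstdc4 shared 0.595, 1.18 and 1.34 kb against 3.79, 3.53 and 4.2 kb (log2 change 1.53 ± 0.18, SE; limma adjusted p = 0.000559). Csta3 went from 1.46 ± 0.42 to 4.76 ± 0.21 kb (SD, n = 3; log2 change 1.45) and Stfa1 from 1.86 ± 0.56 to 3.96 ± 0.20 kb (log2 change 0.94). In all of these genes the groups were separate. The cluster gained regions at the Stfa2 start (chr16:36408021-36408647), inside Csta2 (chr16:36252473-36253325), and just past Stfa1 (chr16:36286300-36287584) and Stfa2l1 (chr16:36162496-36163513). Stefin genes are near-copies of each other. How reads that fit several copies were placed is not given in the sources used here, so the share of each copy is uncertain. Among other protease inhibitors, Cstb and Cst3 had log2 changes of -0.04 and -0.05 and did not pass.

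The 5 gene starts printed here gained a peak with T618I; they are shown because each belongs to a gene just described or to Il6 below, and because their letters can be set against the binding motifs of neutrophil transcription factors. Each sequence is the 250 bases before a RefSeq transcript start (GRCm38.p6, the build of mm10), 5′ to 3′ on the strand of the gene, with capitals for matches to the C/EBP, PU.1, STAT, AP-1 or RUNX motif on either strand. In each case the 300 bp window from 250 before to 50 after the start overlapped a peak in all 3 sgNT/T618I libraries and in no sgNT/Empty library.
Stfa2 (chr16:36408364-36408613, minus strand): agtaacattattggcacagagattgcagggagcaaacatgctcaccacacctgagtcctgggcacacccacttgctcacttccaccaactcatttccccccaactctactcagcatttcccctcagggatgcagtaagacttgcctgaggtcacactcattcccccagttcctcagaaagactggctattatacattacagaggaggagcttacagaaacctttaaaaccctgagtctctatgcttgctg
Retnlg (chr16:48872358-48872607, plus strand): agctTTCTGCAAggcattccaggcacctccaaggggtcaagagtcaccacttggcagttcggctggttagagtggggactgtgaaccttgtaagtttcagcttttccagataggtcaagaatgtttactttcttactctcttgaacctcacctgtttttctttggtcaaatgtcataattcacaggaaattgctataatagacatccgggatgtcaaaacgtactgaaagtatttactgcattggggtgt
Ceacam10 (chr7:24776917-24777166, plus strand): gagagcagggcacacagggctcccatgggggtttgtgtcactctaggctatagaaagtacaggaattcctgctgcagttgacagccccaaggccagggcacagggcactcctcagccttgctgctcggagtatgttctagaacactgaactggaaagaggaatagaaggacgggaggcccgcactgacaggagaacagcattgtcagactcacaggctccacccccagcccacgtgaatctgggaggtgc
Il6 (chr5:30012864-30013113, plus strand): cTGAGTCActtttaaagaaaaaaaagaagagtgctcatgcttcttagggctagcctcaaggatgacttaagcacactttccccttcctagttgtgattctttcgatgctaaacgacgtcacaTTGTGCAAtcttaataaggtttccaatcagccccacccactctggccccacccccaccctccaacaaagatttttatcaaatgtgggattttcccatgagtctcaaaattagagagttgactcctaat
Mmp8 (chr9:7558179-7558428, plus strand): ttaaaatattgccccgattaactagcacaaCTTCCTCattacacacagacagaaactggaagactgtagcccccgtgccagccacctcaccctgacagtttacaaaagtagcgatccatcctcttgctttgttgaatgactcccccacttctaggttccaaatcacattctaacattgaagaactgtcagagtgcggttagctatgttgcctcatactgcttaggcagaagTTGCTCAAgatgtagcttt

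The Retnlg sequence holds a C/EBP match whose first base is 246 bases before the start. Il6 holds a C/EBP match at -128 and an AP-1 match at -249, and Mmp8 a C/EBP match at -19 and a PU.1 match at -220, while no motif searched was found in the Stfa2 and Ceacam10 stretches. Of 21262 promoter windows, in 17491 genes, 73 (0.343%) gained a peak in this way and 10 (0.047%) lost one. Motifs were searched on both strands of the full windows. The C/EBP motif, TTGCNNAA, stood in 15.1% of the gained promoters and 10.2% of all promoters. The shares for the AP-1 motif, TGANTCA, were 15.1% and 6.99%. The PU.1 motif, GAGGAAG, was found in 17.8% and 13.6%. For the RUNX motif, TGTGGTT, the shares were 5.48% and 4.71%. The STAT motif, TTCNNNGAA, stood in 6.85% and 7.69%. These are shares of 73 windows, in 66 genes, of which 11 held the C/EBP and 11 the AP-1 motif. Overlapping windows of the same gene count separately, and Serpina3f and Clec2i each gave 2 of the windows with the C/EBP motif. In promoters with no peak in any library the C/EBP and AP-1 shares were 12.3% and 9.49%, in those with a peak in all 12 they were 7.59% and 3.62%, and of the 10 lost promoters 2 held the C/EBP, 3 the PU.1, 1 the STAT and none the AP-1 or RUNX motif. Letters alone show no bound factor. In cells with the Asxl1 guide, the same promoter windows of Stfa2, Il6 and Mmp8 had a peak in all 3 T618I and no Empty library, whereas those of Retnlg and Ceacam10 had one in 1 of 3 T618I libraries. Other promoters that gained a peak, named after their values were seen, include those of the neutrophil chemokine Ccl6, the citrullinating enzyme Padi4, and C5ar1 and C3ar1, the receptors of 2 complement fragments.

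Genes of inflammatory signalling formed the other listed group with several rises. Of 20 interleukin 1 and inflammatory genes, 4 rose (Il1rl2, Il1rl1, Il18r1 and Il6) and none fell, with a median log2 change of 0.19. The receptor genes Il1rl2, Il1rl1 and Il18r1 are neighbours on chromosome 1 and encode receptors of the interleukin 1 family. Around Il1rl2, coverage was 0.792, 1.89 and 1.64 kb in sgNT/Empty and 3.66, 3.17 and 3.31 kb in sgNT/T618I (log2 change 1.05 ± 0.18, SE; limma adjusted p = 0.00729). With a 10 kb window the change of Il1rl2 was 0.57 and did not pass. Il1rl1 had 1.67, 2.65 and 2.45 kb against 4.82, 4.45 and 4.16 kb (log2 change 0.87 ± 0.14, SE; limma adjusted p = 0.00413). For Il18r1 the values were 1.4, 1.3 and 1.5 kb against 2.00, 2.26 and 3.13 kb. Its log2 change of 0.63 (limma adjusted p = 0.0498) did not pass when any 1 of the 6 libraries was left out. A region between Il1rl2 and Il1rl1, chr1:40392661-40393676, was gained in these cells and again in cells with the Asxl1 guide. Il6 (gene 16193; chromosome 5, 30013114 to 30019975), the acute-phase cytokine, had little open chromatin in either group, 0, 0.255 and 0.178 kb against 0.604, 1.12 and 0.708 kb. The groups did not overlap (log2 change 1.03 ± 0.20, SE; limma adjusted p = 0.0151), but the call was lost without T618I replicate 2 (adjusted p = 0.11) or replicate 3 (adjusted p = 0.052), and with a 100 kb window the change was 0.27. The Il6 window held 1 gained region, chr5:29973631-29974493, which lies 38.6 kb from the gene. That region had a peak in all 3 sgB2/T618I and all 3 sgB2/Empty libraries. The merged region at the Il6 start was thus not gained, although the 300 bp promoter window gained a peak.

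None of 18 chemokine and chemokine receptor genes passed, although 15 had a higher mean with T618I and their median log2 change was 0.28. Ccl9, Ccl6 and Ccrl2 had log2 changes of 0.58, 0.57 and 0.70 (limma adjusted p = 0.07, 0.07 and 0.13), each with no overlap of the groups. A gained region lay in the window of 12 of the 18, and of 12 of the 19 secondary granule genes and 10 of the 13 protease inhibitor genes, against 13.8% of all genes tested, 30.2% of the 321 listed genes and 35% of housekeeping genes. Trem1, an activating receptor of neutrophils, had 4 gained regions within its window, the most of any locus beside Ankrd33b, Galnt6 and Ankrd66. Its coverage was 0.896, 1.68 and 2.08 kb in sgNT/Empty and 3.95, 3.35 and 3.31 kb in sgNT/T618I, which did not pass (log2 change 1.02; limma adjusted p = 0.0663). Il4ra, a receptor chain listed with the STAT targets, was as close, with 1.57, 3.71 and 3.57 kb against 5.73, 6.69 and 5.13 kb (log2 change 0.94; limma adjusted p = 0.0632). None of the other 19 STAT target and feedback genes passed by coverage either, and the median of that list was 0.09.

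Several of the largest increases lay outside the neutrophil lists. Nrp2, a neuropilin that binds semaphorins and vascular growth factors, had the largest of all: coverage was 0.469, 0 and 0.900 kb in sgNT/Empty and 3.17, 2.83 and 3.18 kb in sgNT/T618I (log2 change 2.02 ± 0.30, SE; limma adjusted p = 0.00231). It gained 2 regions inside the gene, chr1:62724455-62725340 and chr1:62760103-62760440, neither of which had a peak in any of the 6 libraries with the Asxl1 guide. F2rl2, a protease-activated receptor, had 0, 0.216 and 0.622 kb against 2.08, 2.74 and 2.28 kb (log2 change 1.95 ± 0.24, SE; limma adjusted p = 0.000853). The gained region, chr13:95712129-95713218, lies inside its neighbour Iqgap2, and with a 10 kb window F2rl2 was not called (log2 change 1.01, adjusted p = 0.11). Gm15448 had 0.28 ± 0.28 kb without and 1.99 ± 0.47 kb with T618I (SD, n = 3; log2 change 1.72), and one of its gained regions, chr7:3844737-3845391, is the promoter of Pira2, a paired immunoglobulin-like receptor of myeloid cells.

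Fam155a had no peak in its window in any sgNT/Empty library and 1.31, 0.665 and 1.42 kb in sgNT/T618I, whereas it was open with either vector in cells with the Asxl1 guide (1.48 ± 0.18 and 1.84 ± 0.41 kb; SD, n = 3). Its call did not hold with stricter peaks (log2 change 1.01, adjusted p = 0.22) or equal-length lists (0.72, adjusted p = 0.094). Nfatc2, a calcium-regulated transcription factor, and Lrfn2, a synaptic adhesion protein, were likewise already open with the Asxl1 guide: 0.35 ± 0.31 and 0.05 ± 0.09 kb in sgNT/Empty, 1.77 ± 0.33 and 1.01 ± 0.13 kb in sgNT/T618I, and 2.34 ± 0.52 and 0.97 ± 0.45 kb in sgB2/Empty (SD, n = 3). With equal-length lists Nfatc2 was not called (log2 change 1.12, adjusted p = 0.17). Upp1, a uridine phosphorylase, had 0.49 ± 0.44 kb against 2.27 ± 0.57 kb (log2 change 1.58) and Map10, a microtubule-associated protein, from 0.17 ± 0.15 to 1.53 ± 0.13 kb (log2 change 1.62). Pla2g7, the platelet-activating factor acetylhydrolase, went from 0.63 ± 0.49 to 2.37 ± 0.36 kb (SD, n = 3; log2 change 1.43). Without 1 library the call was lost for Upp1 only without T618I replicate 2 (log2 change 1.43), for Map10 without sgNT/Empty replicate 1 (1.42) or any T618I replicate (1.59 to 1.68), and for Pla2g7 without any library but sgNT/Empty replicate 1 (1.15 to 1.49). The cell cycle factor E2f2 (0.62) and the glycolytic enzyme Pgk1 (0.68), a housekeeping gene by its list, also rose, and both calls were lost when any library but sgNT/Empty replicate 3 was left out (0.54 to 0.67 and 0.56 to 0.72).

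**Figure D2:**
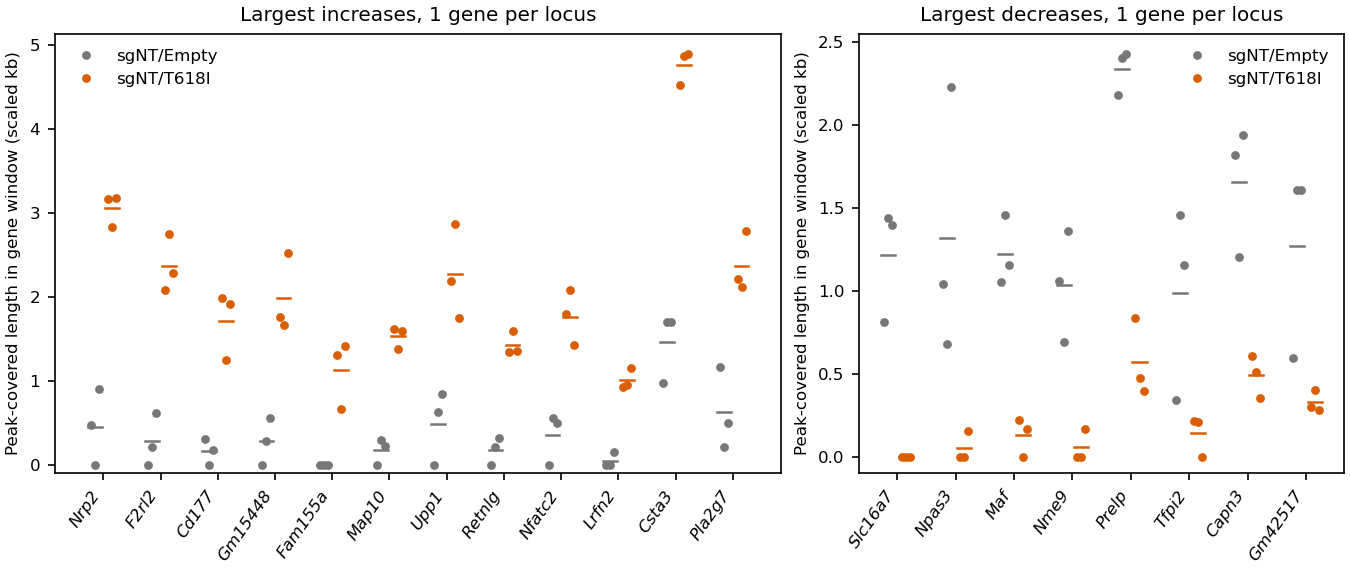
Peak-covered length in the gene window (scaled kb, y axis) for the 12 largest increases and the 8 largest decreases, 1 gene per locus; points are the 3 libraries of a group and lines their means. For every gene shown the sgNT/T618I points (orange) and the sgNT/Empty points (grey) do not overlap, and Slc16a7 is at 0 in all 3 sgNT/T618I libraries.

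Coverage fell around fewer genes and around no neutrophil, granule or chemokine gene of the lists. Slc16a7, a monocarboxylate transporter, had 0.811, 1.44 and 1.39 kb in sgNT/Empty and no peak in any sgNT/T618I library (limma adjusted p = 0.00217). Npas3, a neuronal transcription factor, had 1.04, 0.680 and 2.23 kb against 0, 0 and 0.153 kb (log2 change -1.64 ± 0.25, SE; limma adjusted p = 0.00231). Of its 2 lost regions, chr12:53251707-53253728 was lost in cells with the Asxl1 guide as well. Maf, a basic leucine zipper factor active in macrophages and T cells, had 1.05, 1.45 and 1.15 kb against 0.218, 0 and 0.164 kb (log2 change -1.46 ± 0.27, SE; limma adjusted p = 0.0105), and was the 1 fall among 19 myeloid transcription factors, none of which rose. Without T618I replicate 2 the fall of Maf did not pass (log2 change -1.31, adjusted p = 0.068). Prelp, a matrix proteoglycan, fell from 2.33 ± 0.14 to 0.57 ± 0.24 kb (SD, n = 3; log2 change -1.43), and Nme9 from 1.04 ± 0.34 to 0.06 ± 0.10 kb (log2 change -1.46). The region lost near Nme9, chr9:99436391-99436922, is the promoter of Mras. With stricter peaks neither was called (log2 changes -0.71 and -0.72). Capn3 (-1.11), the coagulation inhibitor Tfpi2 (-1.14) and Gm42517 (-1.04) also fell, but Capn3 not without sgNT/Empty replicate 1 or T618I replicate 2 or 3 (-1.13 to -1.01), and neither Tfpi2 nor Gm42517 without any library but sgNT/Empty replicate 1 (-1.23 to -0.90 and -1.10 to -0.88).

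Of the 11 primary granule genes none passed, and 9 had a lower mean with T618I (median log2 change -0.16), where 60.1% of all genes were lower. Mpo, myeloperoxidase, had 10.7, 8.29 and 7.20 kb in sgNT/Empty and 5.56, 6.63 and 6.59 kb in sgNT/T618I, with no overlap (log2 change -0.44 ± 0.13, SE; limma adjusted p = 0.106). Elane and Prtn3 were both at -0.16. The 2 higher members were Ctsc (0.72) and Serpinb1a (0.57). No member passed among 15 stem and progenitor, 13 monocyte and macrophage, 13 lymphoid, 12 erythroid and megakaryocyte, 11 mast cell and eosinophil, 14 interferon response and 7 NADPH oxidase genes, and their medians lay between -0.21 and 0.12. Of 20 CSF3R signalling components only Csf3r passed, and the median was -0.00. The lists share genes with each other and neighbouring members share regions.

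**Figure D3:**
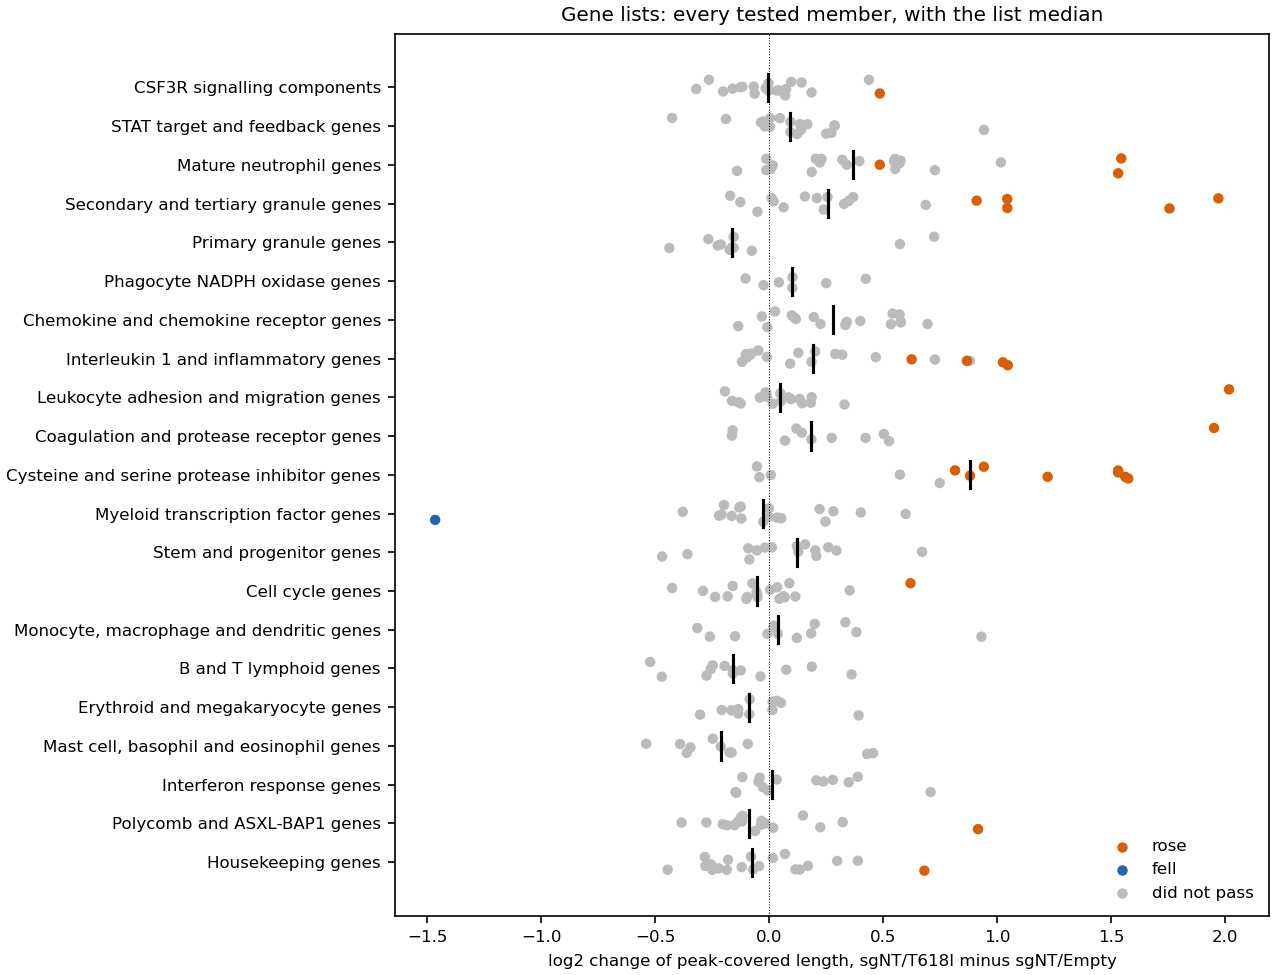
Log2 change of peak-covered length (x axis, sgNT/T618I minus sgNT/Empty) for every tested member of 21 gene lists; orange points rose, the blue point fell, grey points did not pass, and black bars are list medians. The protease inhibitor list has the highest median, 0.88, and the medians of the mature neutrophil, chemokine and secondary granule lists lie between 0.26 and 0.37.

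A gene window counts only where peaks are, so regions with a peak in all 12 libraries were compared by their place in each list. Each region was ranked within its library by the deposited −log10 p over the 13356 such regions and given a percentile, with 100 the strongest. With T618I the rank rose in 411 regions (3.08%), whose median percentile went from 25.8 to 64.3, and fell in 357 (2.67%), from 56.8 to 18.7, by limma on normal scores of the ranks. Promoters made up 16.7% of the risen and 24.3% of the fallen regions, against 51.6% of all regions common to the libraries. Ranked by the deposited fold enrichment instead, only 58 regions were called (21 up and 37 down), though 405 of the 411 and 356 of the 357 kept their direction. Percentiles of regions near listed genes are given next; these regions were picked after their values were seen, as those called whose nearest gene is on a list. They number 33 risen and 16 fallen among 429 (7.69% and 3.73%).

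Of 43 common regions nearest a STAT target or feedback gene 7 rose (16.3%) and none fell. For chemokine genes 5 of 27 rose (18.5%). The share was 14.3% each for protease inhibitor genes, 1 of 7, and NADPH oxidase genes, 2 of 14. Near NADPH oxidase genes 1 region also fell. One of the 7 STAT target regions lies 9.7 kb from Cish, the STAT-induced inhibitor of cytokine receptors, at chr9:107312472-107313430. It stood at 12.6, 22.5 and 10.95 in sgNT/Empty and 69.3, 53.5 and 80.9 in sgNT/T618I (limma adjusted p = 0.000427). The region near Socs1, the inhibitor of JAK kinases, at chr16:10768848-10769139, stood at 13.2, 22.4 and 18.9 against 69.2, 77.9 and 76.1 (limma adjusted p = 5.08e-05). A region 101 kb from Bcl6, a transcriptional repressor, went from 29.1, 47.8 and 13.5 to 85.8, 84.3 and 85.6 (limma adjusted p = 0.000386). Irf1, a STAT-induced interferon regulatory factor, had one at 55.6, 71.5 and 68.1 against 96.9, 90.6 and 97.04 (limma adjusted p = 0.000174). In these 4 regions the groups were far apart, and all 4 rose in cells with the Asxl1 guide too. By fold enrichment only the Socs1 region was still called. The other 3, near Il4ra, Bcl3 and Mcl1, rose by less, and by fold enrichment Bcl3 and Mcl1 turned to -0.01 and -0.05. With the Asxl1 guide none of these 3 passed (limma adjusted p = 0.0904, 0.328 and 0.330). When 1 library was left out, Mcl1 was lost in all 6 fits, Bcl3 in 5 (all but sgNT/Empty replicate 2) and Il4ra in 5 (all but T618I replicate 2).

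The ranks of 3 distal regions nearest Cebpb, the transcription factor of emergency granulopoiesis, rose as well. The nearest of them, 49.9 kb from the gene at chr2:167740309-167741131, went from 0.797, 2.98 and 5.75 to 50.4, 55.3 and 25.3 (limma adjusted p = 0.0013), and the next from a mean of 17.95 to 65.6. The third went from 52.2 to 83.6 but showed -0.03 by fold enrichment. Cxcr2, the receptor that releases neutrophils from the marrow, had a region 5.5 kb away at 14.9, 29.5 and 11.6 in sgNT/Empty and 61.5, 59.6 and 65.9 in sgNT/T618I (limma adjusted p = 0.00159). The promoter of Il1r2, the decoy receptor of interleukin 1, went from 13.5, 5.50 and 2.07 to 60.0, 31.0 and 64.1 (limma adjusted p = 0.00143). Among chemokine genes 5 of 27 common regions rose, near Cxcl1, Cxcl2, Cxcr2 and, in 2 regions, Cxcr4, and none fell. The calls of Cxcr4 and Cxcl2 were lost when some single libraries were left out, although their groups did not overlap. For Cxcr4, 1 call was lost without any library but sgNT/Empty replicate 2, the other without sgNT/Empty replicate 1 or T618I replicate 3. The Cxcl2 call was lost without sgNT/Empty replicate 3 or T618I replicate 1 or 3. Near Clec4d, a lectin receptor of neutrophils, the mean percentile rose from 17.02 to 60.2, and at the promoter of the cell cycle inhibitor gene Cdkn2a from 1.93 to 28.8. With the Asxl1 guide neither passed (rank score changes 0.0008 and 0.03). The sgB2/Empty libraries already stood at 52.3, 54.2 and 64.0 near Clec4d and at 34.2, 17.2 and 31.4 at Cdkn2a. The rises near Cxcl1 and Cxcr4 did not pass with that guide either, while those near Cebpb, Cxcr2, Il1r2 and Cxcl2 did. Of the regions in this paragraph only the Cdkn2a promoter was also called by fold enrichment.

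Of 12 common regions nearest a primary granule gene 3 fell and none rose, and of 29 nearest a stem or progenitor gene 2 fell and 3 rose. The promoter of Mpo, chr11:87793280-87794168, stood at 61.4, 55.8 and 70.1 in sgNT/Empty and 1.2, 15.9 and 15.3 in sgNT/T618I (limma adjusted p = 0.000564), and a region before Ctsg, the gene of cathepsin G, at 45.4, 79.3 and 79.5 against 10.9, 40.5 and 15.97 (limma adjusted p = 0.00552). The third primary granule region that fell lies 3.2 kb before Mpo; its direction turned by fold enrichment (0.46) and its call was lost in 5 of the 6 fits that left out 1 library (all but sgNT/Empty replicate 2). A region 73.8 kb from Kit, the stem cell factor receptor, fell from 94.0, 95.6 and 92.1 to 26.3, 55.2 and 42.1 (limma adjusted p = 5.52e-05). One inside Myb, a transcription factor of proliferating progenitors, fell from 73.9, 77.9 and 89.5 to 46.5, 38.2 and 20.5 (limma adjusted p = 0.00076). All of these groups were separate. Yet 3 regions near Cd34, another progenitor gene, rose, from means of 31.1, 19.0 and 38.2 to 59.1, 48.4 and 68.7; each of these calls was lost when some single libraries were left out (T618I replicate 2 for all 3, and for each 3 others of the 6). Near the transcription factor genes Egr2 and Gfi1 and inside the adhesion gene Pecam1, means fell from 55.5 to 11.7, 29.8 to 6.46 and 37.3 to 2.62. Over the myeloid transcription factor list 6 of 51 common regions rose and 3 fell; the risen ones are the 3 of Cebpb, 2 near or in Runx1, with means from 37.7 to 75 and 6.27 to 24.2, and 1 near Id2, from 22.9 to 61.8. The calls of Id2 and both Runx1 regions were lost without T618I replicate 2. That of Id2 was also lost without sgNT/Empty replicate 1 or T618I replicate 1, and each Runx1 call without 3 others of the 6 libraries (sgNT/Empty replicates 1 and 2 and T618I replicate 3 for the first, sgNT/Empty replicate 2 and T618I replicates 1 and 3 for the other). The Gfi1 call was lost in 5 fits that left out a library (all but sgNT/Empty replicate 3), and of the regions in this paragraph only that of Pecam1 was also called by fold enrichment. With the Asxl1 guide the changes of Gfi1, Pecam1, Id2, both Runx1 regions, the upstream Mpo region and the middle Cd34 region did not pass. The other regions named in this paragraph were called in the same direction there.

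At Csf3r the promoter region fell in rank from 51.6, 37.6 and 36.6 to 5.76, 10.95 and 13.6 (limma adjusted p = 0.0075, and 0.117 by fold enrichment), while the 2 upstream regions described above were gained. With the Asxl1 guide this fall did not pass (score change -0.69, limma adjusted p = 0.0696). The promoter peaks spanned -0.248 to 0.274, -0.378 to 0.461 and -0.229 to 0.265 kb from the start in sgNT/Empty. In sgNT/T618I they spanned -0.532 to 0.437, -0.470 to 0.433 and -0.411 to 0.303 kb. The lower rank thus did not go with a loss of these peaks, and whether peak width bears on the rank was not tested. The largest rise of all common regions was near Piwil2, at chr14:70370609-70371283, from 0.603, 1.49 and 0.947 to 82.1, 56.7 and 66.5 (limma adjusted p = 1.7e-06). It was followed by regions near Arhgef19, Tcte2 and Sorl1, whose means rose from 5.88 to 70.0, 41.2 to 95.3 and 2.17 to 44.1. Among the largest falls were those inside Adamts14, from a mean of 64.5 to 2.2, and inside Rab3ip, from 48.3 to 2.32. Another, 239 kb from Zfp386, its nearest gene in the reference, went from 15.6 to 0.27. All 7 moved in the same direction in cells with the Asxl1 guide, where Zfp386 did not pass. By fold enrichment all of the 7 but Tcte2 were still called.

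**Figure D4:**
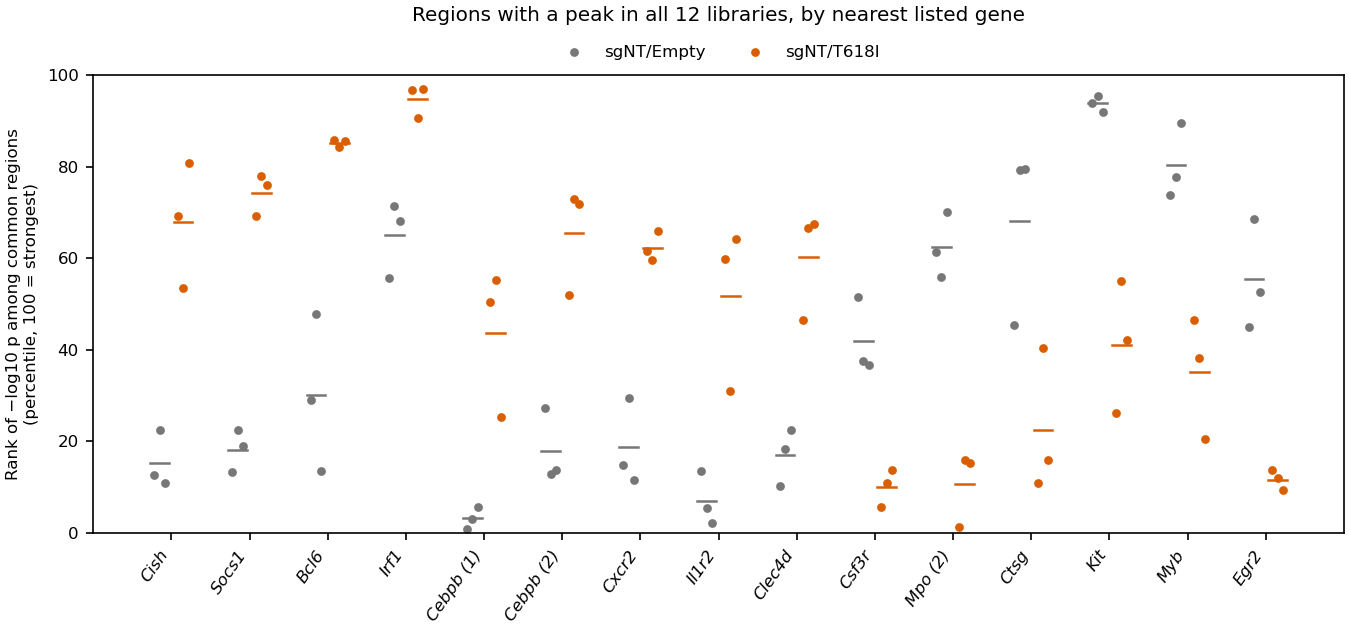
Percentile rank of the deposited −log10 p within each library (y axis, 100 the strongest of 13356 regions) for 15 regions open in all 12 libraries, labelled by nearest listed gene; numbers in brackets count regions of the same gene along the chromosome. Points are libraries and lines are group means: the regions from Cish to Clec4d are higher in sgNT/T618I (orange) and those from Csf3r to Egr2 higher in sgNT/Empty (grey).

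Over the whole genome, 37113 merged regions were found in at least 2 of the 12 libraries. Gained regions, as above, had peaks in all sgNT/T618I and no sgNT/Empty library, and lost regions the reverse. An exact permutation test of 3 against 3 cannot go below p = 0.1, so these are counts. T618I gained 1204 regions (3.24%) and lost 204 (0.55%). Just outside these limits lay 1347 regions with 3 peaks against 1 and 1581 with 2 against 0, and in the other direction 281 and 1193. Gained regions were 85.5% of both together, 61.7% in equal-length lists (755 gained and 469 lost) and 50.04% without sgNT/Empty replicate 1, the shortest list (1255 gained and 1253 lost). Gained regions had a median width of 512 bp and lost ones 434 bp, against 626 bp over all 37113. Most lay away from promoters: 5.38% of the gained and 4.98% of the lost regions overlapped a promoter, against 22.3% of all. The median distance to the nearest start was 25.8 kb for gained, 37.5 kb for lost and 18.2 kb for all regions. A gained region lay in the window of 142 of the 178 genes that rose (79.8%, against 13.8% of genes tested) and a lost region in that of 20 of the 50 that fell (40%, against 2.17%), as the 2 measures come from the same peaks.

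The gained regions that stood highest in their lists were not confined to neutrophil genes. The Stfa2 promoter region stood at the 84.7, 83.9 and 91.5 percentile of all peaks of the 3 sgNT/T618I libraries. A region inside Ostf1, chr19:18602981-18603430, stood at 86.1, 80.7 and 89.2, and one inside Vrk3, chr7:44753726-44754273, at 73.5, 79.4 and 91.2. These 3 and a region inside Sirt2 were gained in cells with the Asxl1 guide as well. A region inside Cacng8, chr7:3411166-3411749, had the highest mean rank, 91.9, but was open in all 6 libraries with the Asxl1 guide, and one in Ttc17 behaved likewise. The remaining 2 of the first 8 lay inside Ralgds and Rnh1. Among lost regions the highest ranks, 69.8, 79.9 and 72.4 in the sgNT/Empty libraries, belonged to one inside Adcy2, chr13:68928447-68928820. It was lost with the Asxl1 guide too, as were those near Cd9 and inside Sash1, whereas those of Ces1d, Cdh12, Hecw2, Dpp6 and Rab10 were not.

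The same contrast was then read in the libraries with the Asxl1 guide. These did not decide which merged regions were gained or lost, but they entered the merging, the choice of common regions and the spread of the model fits. Of the 1204 gained regions, 53.0, 78.2 and 51.6% had a peak in the 3 sgB2/T618I libraries and 9.63, 15.7 and 21.3% in the 3 sgB2/Empty libraries, so the 2 groups did not overlap. In 888 (73.8%) more sgB2/T618I than sgB2/Empty libraries had a peak, in 48 fewer did, and 254 (21.1%) were gained by the same rule, which called 3.24% of all regions in those cells. Of the 204 lost regions, 15.2, 30.4 and 12.7% had a peak in sgB2/T618I and 37.3, 50.5 and 59.8% in sgB2/Empty libraries, and 32 (15.7%) were lost by the rule, against 0.911% of all regions. Among regions neither gained nor lost, the shares with a peak were 63.0, 78.6 and 60.6% in sgB2/T618I and 53.7, 61.8 and 67.0% in sgB2/Empty libraries. The rule asks for no sgB2/Empty peak in a gained region, which held for 70.4% of the 1204 and 24.1% of these other regions. It asks for peaks in all 3 sgB2/Empty libraries in a lost region, which held for 29.4% of the 204 and 46.9% of the others. The shares over all regions thus include many that could not meet the rule. Of the gene windows, 174 of the 178 that rose had a higher mean with T618I in cells with the Asxl1 guide, with a median log2 change of 0.53, and 46 of the 50 that fell had a lower one (median -0.40), where 40.2% of all genes were higher and 59.8% lower. In all, 60 genes rose in both, 33.7% of the 178 and 32.4% of the 185 that rose with the Asxl1 guide (1.21% of genes tested). Likewise 7 fell in both, 14% of the 50 and 11.7% of the 60 that fell with the Asxl1 guide (0.393% of genes tested). Of the common regions, 200 of 411 rises (48.7%) and 170 of 357 falls (47.6%) were called in the same direction with the Asxl1 guide, where 6.005% of all common regions rose and 4.75% fell, and 0 and 3 in the opposite one.

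Genes differed in how far the change was seen with the Asxl1 guide, but the difference itself seldom passed. S100a9 (1.05 without and 1.03 with the guide), Stfa2l1 (1.53 and 1.72), Csf3r (0.49 and 0.50), F2rl2 (1.95 and 2.31) and Il6 (1.03 and 1.33) rose in both. For Nrp2 (2.02 and 0.55), Cd177 (1.76 and 0.56), Ceacam10 (1.97 and 0.74) and Retnlg (1.55 and 0.46) the second change did not pass, yet the interaction term of the same limma fit gave adjusted p-values of 0.776, 0.685, 0.913 and 0.776. None of the 228 genes had an interaction that passed. Over all 15282 genes 1 did by limma, Amot, and 750 had an unadjusted p below 0.05.

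**Figure D5:**
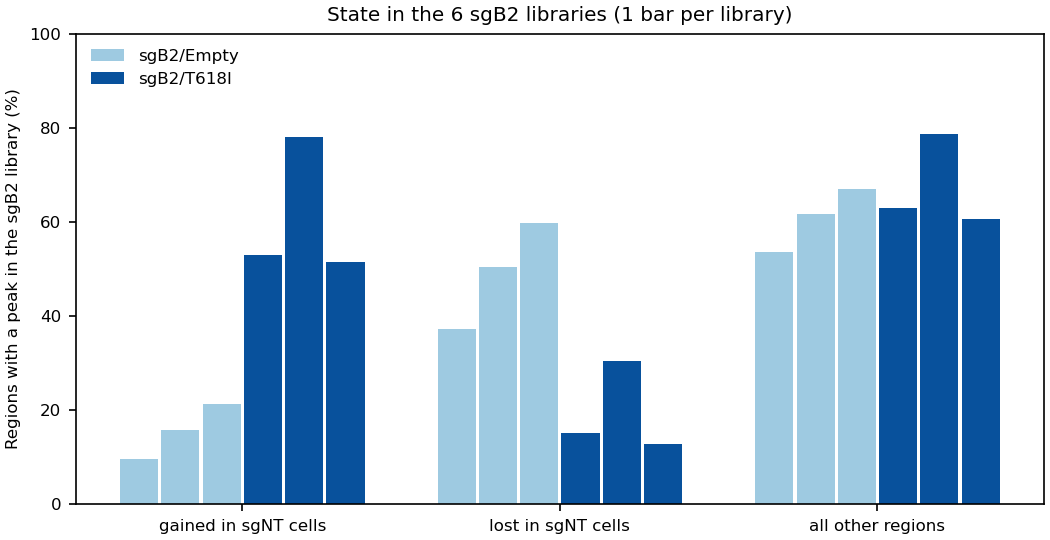
Share of regions with a peak in each library with the Asxl1 guide (y axis, percent), for the 1204 regions gained and the 204 lost with T618I in cells with the non-targeting guide and for all other regions; 1 bar per library. For gained regions the 3 sgB2/T618I bars (dark) lie between 51.6 and 78.2% and the 3 sgB2/Empty bars (light) between 9.63 and 21.3%.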

How the data were processed

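ATAC-seq was done on 12 libraries, 3 per group. Per the submitters' processing notes, reads were handled with BWA 0.7.17, SAMtools 1.9, bedtools 2.30, MACS2 2.2.7.1 and deepTools 3.5 on mm10; the role of each is not given in the sources used here. The authors deposited 1 MACS2 broad peak list per library, with a score (not used), a fold enrichment, and −log10 p and q values for each peak, and each list belongs to 1 labelled sample. Read depth is unknown, and the number of libraries and the list lengths limit the precision.

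From these lists, peaks on the main chromosomes of all libraries were merged where they overlapped by 1 bp, which gave 56682 regions. Gene windows (gene ± 50 kb, RefSeq GRCm38.p6) were tested with limma 3.58.1 (R 4.3.3) on log2(scaled covered bp + 500) where the mean was at least 500 bp, with all 12 libraries in 4 groups, 8 residual degrees of freedom and Benjamini-Hochberg adjustment over all genes at 0.05. Ranks of −log10 p were tested the same way as normal scores. On simulated data the gene fit called 78 of 100 planted changes of 1 (log2), 16 of 100 of 0.5 and 4 of 15082 unchanged genes. The rank fit called 88 of 100 changes of 1.5, 20 of 100 of 0.75 and 0 of 13156 unchanged regions. The simulated noise was normal and independent between genes or regions. In these data neighbouring windows share peaks, some windows are empty and list lengths differ, so the rates may not hold here. Python 3.11.15 with SciPy 1.17.1 gave the exact permutation tests. The text names the 12 largest rises and 8 largest falls with 1 gene per locus, up to 4 called genes per list, and Csf3r, Asxl1 and Hoxb8; all other genes and regions were named after their values were seen. The members and lists were chosen with earlier results of these data known. Alternatives were other windows, added constants, filters, scalings, peak cutoffs, list lengths, a replicate block and leaving out each library. Regions on chromosome 18 were not classed by place. Results for 2 genes are not reported here.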

Additional observations from a re-analysis of the deposited data

Results flagged for a closer look

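The effect of T618I differed between the cells with the Asxl1 guide and those with the non-targeting guide for 1 gene and 6 common regions, by the limma interaction term at an adjusted p below 0.05. Around Amot, which encodes angiomotin, peaks covered 1.27 ± 0.30 kb in sgNT/Empty, 1.12 ± 0.08 kb with T618I in the same cells, and 1.31 ± 0.16 kb in sgB2/Empty (SD, n = 3), and Amot had no peak in its window in any sgB2/T618I library. The difference of the 2 changes was -1.74 ± 0.24 (log2, SE; adjusted p = 0.0198). Among regions open in all 12 libraries, the rank score change in cells with the Asxl1 guide minus that in cells with the non-targeting guide was 3.04 near Pura, 2.52 near Eml6, 1.92 near Acadl, 1.89 near Pex26, 1.89 near Sorcs2 and -1.67 near Garem1. In cells with the non-targeting guide T618I went with a lower mean percentile near Pura (53.1 to 7.47), Eml6 (40.04 to 3.28) and Sorcs2 (86.1 to 61.3). It went with a higher one near Garem1 (15.1 to 57.5). The lower means near Pex26 (36.8 to 16.1) and Acadl (35.2 to 28.2) did not pass (limma adjusted p = 0.123 and 0.696). Near Garem1, sgB2/Empty stood at 95.3, 96.5 and 95.7 against 27.1, 9.27 and 8.98 in sgNT/Empty. Near Sorcs2 it stood at 15.9, 40.3 and 46.7 against 85.5, 83.9 and 88.8. Near Pura, Pex26 and Acadl all sgB2/Empty libraries lay below all sgNT/Empty libraries, while near Eml6 the groups overlapped. The part that these differences without T618I have in the interaction was not tested. None of these genes is on the gene lists.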

How the results depend on the processing

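The count of 228 genes whose coverage rose or fell became 56 with a 10 kb window, 375 with a 100 kb window, 59 without scaling and 510 with equal-length lists, and from 66 to 257 when 1 library was left out. Without scaling the median change of all genes was 0.19. The 768 common regions became 58 when ranked by fold enrichment and from 407 to 756 when 1 library was left out. The 1204 gained and 204 lost regions became 755 and 469 with equal-length lists, and from 1255 to 2098 and from 246 to 1253 when 1 library was left out. The 1 interaction gene became 2 with peaks of −log10 q of at least 3, 4 with equal-length lists, 2 with 200 bp added and 0 with 1000 bp added, and 0 to 3 when 1 library was left out. The difference in the number of peaks, 3192, turned to -26.3 without sgNT/Empty replicate 1 and reached 5581 in the other fits that left out 1 library. Hoxb8 turned to -0.0664 with peaks of −log10 q of at least 3 and to -0.23 with equal-length lists. Ranked by fold enrichment, the regions near Cebpb (the third), Mcl1, Bcl3 and Mpo (upstream) turned to -0.0267, -0.0452, -0.0144 and 0.46. The cause of these shifts was not tested. Of the settings tried for the named genes, 457 values kept side and direction, 128 no longer passed and 2 turned; for the common regions the numbers were 419, 143 and 4.

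Replicate numbers did not pair the libraries: same-numbered sgNT libraries had correlations of -0.05, -0.04 and 0.04 in their deviations from the group means. With the replicate number as a block, 255 genes (203 up, 52 down) and 712 common regions were called. Without read counts, a region called in 1 library and not in another may differ by little.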
